A study of Mus musculus with 72 samples.

Results

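The genes described here drive the cell division cycle, from G1 cyclins and replication licensing to mitosis and cytokinesis. The list holds 48 gene symbols, all of them in the table, with 103 probes between them. A probe was kept where its mean reached at least 1 CPM (counts per 1000000 counts of the library) in any of the 8 dose groups. This left 83 probes of 44 genes, out of 30146 probes and 21400 symbols in all. The rule asks only for a minimum level in any group and for no difference between groups. However, 29 of the 83 probes reached 1 CPM only in the group given the highest dose for 14 d, so the count of probes kept was itself raised by that group.

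Livers came from female B6C3F1 mice, 9 to 11 weeks old, a first-generation hybrid of inbred strains used in toxicology. Their drinking water held tertiary butyl alcohol (TBA) at 0, 10, 20 or 40 mg/mL. Exposure lasted 14 or 28 d, and each group had 9 animals. TempO-Seq, which ligates and sequences pairs of short detector oligos on chosen transcripts, was run on sections scraped from slides of formalin-fixed, paraffin-embedded liver, with 1 library per animal. The controls of each duration drank water without TBA (0 mg/mL), and no group carries an allele or a second agent. By its title the series examines how TBA may lead to thyroid follicular adenomas in female mice, and the comparison with control asks whether liver transcripts moved with the dose. Scraped sections hold every cell type of the organ, so fewer cells of a type and less RNA per cell cannot be told apart, and a cell cycle transcript cannot be assigned to hepatocytes or to other cells.

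The 71 libraries used held 7.77 to 12.7 M counts (M, 1000000). Replicate 5 at 40 mg/mL for 14 d held 10796 counts and was left out, so that group has 8 animals. Replicate numbers only name animals, and the labels give no batch or plate. Values below are CPM after TMM scaling, which corrects for a few abundant transcripts taking up a library. A gene is represented by its probe with the highest mean, its lead probe, and probes measure different transcript stretches, so levels are compared within a gene only. All 7 hepatocyte markers passed the filter on low counts, and Alb, which encodes albumin, averaged 6029 CPM in the 14 d controls.

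Most hepatocytes of an adult liver rest outside the cycle and can re-enter it. In G1, D- and E-type cyclins with their kinases lead to the release of E2F factors, which switch on genes of replication and of deoxynucleotide supply. Later, in G2 and mitosis, a second wave of genes is switched on by complexes that bind CCAAT boxes and the cell cycle homology region (CHR), a short element near the start of many mitotic genes. Polyploid hepatocytes can copy their DNA without dividing, so transcripts of replication and of mitosis are read apart here.

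The promoters of 5 members are printed to show what those elements look like in genes described below. RefSeq windows on GRCm38.p6 were found for 37 of the 44 member genes. The 250 bases before the start were searched on both strands for CHR (TTTGAA or TTCGAA), for CCAAT, and for the E2F letters in their forms TTCCCGC or TTGGCGC or TTCGCGC or TTGCCGC. Matches of CCAAT and E2F can share bases. The sequences run 5′ to 3′ on the strand of the gene and end at the base before its start, with every match in capitals:
Cdk1, chr10:69352913-69353162, minus strand: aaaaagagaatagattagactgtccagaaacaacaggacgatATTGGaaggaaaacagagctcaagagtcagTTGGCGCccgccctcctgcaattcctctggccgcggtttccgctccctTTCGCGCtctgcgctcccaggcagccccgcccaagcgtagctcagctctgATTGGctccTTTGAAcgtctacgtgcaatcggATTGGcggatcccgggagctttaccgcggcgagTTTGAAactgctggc
Mki67, chr7:135716380-135716629, minus strand: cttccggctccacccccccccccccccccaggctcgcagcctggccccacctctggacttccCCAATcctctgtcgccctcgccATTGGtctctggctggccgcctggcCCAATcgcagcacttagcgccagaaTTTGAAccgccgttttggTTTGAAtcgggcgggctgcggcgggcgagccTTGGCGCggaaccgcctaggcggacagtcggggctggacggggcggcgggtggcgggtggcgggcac
Top2a, chr11:99024190-99024439, minus strand: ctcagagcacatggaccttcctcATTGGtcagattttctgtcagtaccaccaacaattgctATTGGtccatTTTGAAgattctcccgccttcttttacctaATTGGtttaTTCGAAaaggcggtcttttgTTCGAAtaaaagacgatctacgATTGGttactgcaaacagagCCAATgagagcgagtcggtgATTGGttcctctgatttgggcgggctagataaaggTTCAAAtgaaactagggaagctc
Cdc20, chr4:118437344-118437593, minus strand: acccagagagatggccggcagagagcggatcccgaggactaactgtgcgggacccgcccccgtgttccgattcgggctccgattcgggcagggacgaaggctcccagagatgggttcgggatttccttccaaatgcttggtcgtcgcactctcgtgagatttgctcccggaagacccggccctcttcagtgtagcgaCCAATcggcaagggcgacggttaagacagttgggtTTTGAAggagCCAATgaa
Mcm6, chr1:128359706-128359955, minus strand: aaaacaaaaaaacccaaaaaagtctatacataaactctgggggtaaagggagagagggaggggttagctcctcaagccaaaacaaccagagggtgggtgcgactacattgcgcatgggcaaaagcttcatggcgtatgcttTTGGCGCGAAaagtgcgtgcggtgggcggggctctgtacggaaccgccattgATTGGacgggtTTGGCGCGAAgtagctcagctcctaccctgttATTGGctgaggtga
Cdk1, the kinase of mitotic entry, held all 3 kinds of element, as did Mki67, which encodes the Ki-67 proliferation antigen. Top2a, which untangles sister chromatids, and Cdc20, an activator of the anaphase-promoting complex, held CHR and CCAAT without an E2F match. Mcm6, a subunit of the replicative helicase, held E2F and CCAAT without CHR.

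CCAAT stood in 30 of the 37 windows (81.1%), against 37.5% of all 27025 genes with a window. CHR stood in 12 (32.4%, against 19.6%), E2F in 10 (27.0%, against 9.01%), and CHR together with CCAAT in 12 (32.4%, against 7.0%). Among the 24 matched genes of G2, mitosis and cytokinesis, 22 held CCAAT (91.7%), 10 held CHR (41.7%) and 5 held E2F (20.8%). Among the 13 matched genes of G1, S phase, replication and deoxynucleotide supply, 8 held CCAAT (61.5%), 2 held CHR (15.4%) and 5 held E2F (38.5%). The elements were also counted by the calls at 40 mg/mL for 14 d, given below. CHR stood in 5 of the 16 windows of genes whose lead probe was called and in 7 of the 21 others. CCAAT stood in 15 of 16 and 15 of 21, and E2F in 6 of 16 and 4 of 21. These differences were not tested. Birc5, the member with the smallest p, held none of the 3. These matches describe letters in a window and show no binding.

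At 40 mg/mL for 14 d, genes of mitosis were several-fold higher than in the controls on average, while no gene of G1 entry or of replication licensing passed in the edgeR fit used here. Of those genes Ccne2, Mcm6 and Mcm2 passed under some of the alternatives given below. Replicates 1, 4, 6 and 7 stood above every control in most of these genes, and the rest mostly lay within or below the control range. In edgeR's quasi-likelihood test with Benjamini-Hochberg adjustment over all 17050 probes tested, 33 of the 73 member probes tested were higher at an adjusted p under 0.05 and 0 were lower. Of all probes tested, 6.52% were called in either direction and 2.84% as higher, against 45.2% of the member probes. The median log2 fold change was 2.50 over the member probes and 0.06 over all probes. Among the 38 member probes whose control mean was itself at least 1 CPM, which did not need the dosed group to enter, 19 were higher (50.0%). Among the 19 tested probes that reached 1 CPM only in the dosed group, 5 were higher. By lead probe, 19 of 42 genes tested were higher. The spread between animals was estimated over all 8 groups together, and the dosed group varied more than the controls. Its summed genes of G2 and mitotic entry spanned 5.40 to 514 CPM, against 2.57 to 34.5 in the controls. Without replicate 7 of the dosed group 4 member probes were called, and other fits are given below.

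**Figure D1:**
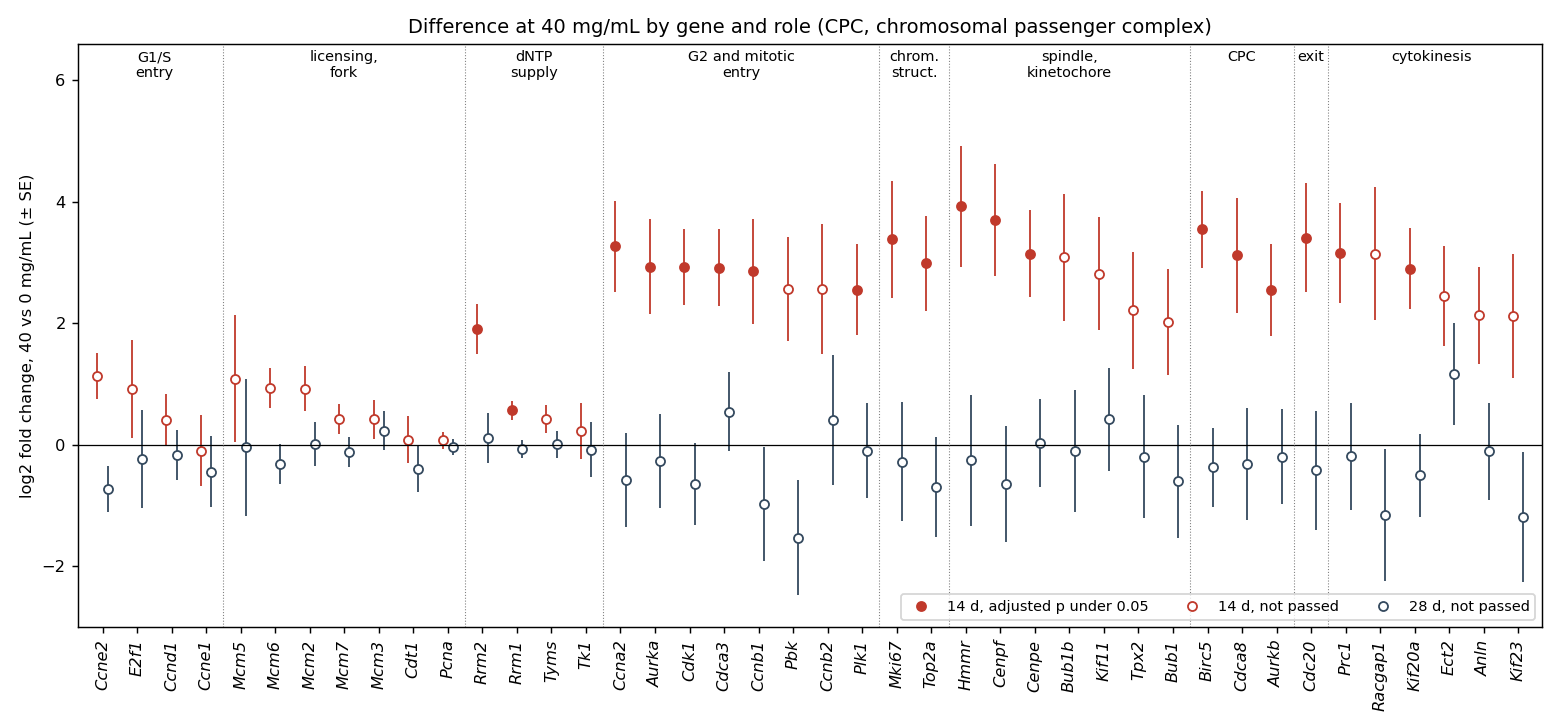
Log2 fold change (± SE) of the 42 tested member genes at 40 mg/mL against 0 mg/mL, at 14 d (red) and 28 d (dark), ordered by role, with filled circles for an adjusted p under 0.05. The 27 genes of G2, mitosis and cytokinesis lie between 2.02 and 3.92 at 14 d, while the 28 d values lie around 0 and none is filled.

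Of the 27 tested genes of G2, mitosis and cytokinesis, 17 were higher at 40 mg/mL for 14 d, with a median log2 fold change of 2.92 and a range of 2.02 to 3.92. Of the 15 tested genes of G1, S phase, replication and deoxynucleotide supply, 2 were higher, with a median of 0.42 and a range of -0.10 to 1.91. Leaving out the genes whose lead probe reached 1 CPM only in the dosed group, 16 of 21 and 2 of 13 were higher. No test was made of the difference between these groups of genes.

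In the chromosomal passenger complex, which corrects chromosome attachments and guides cytokinesis, all 3 genes rose, of which Cdca8 had reached 1 CPM only in this dosed group. Birc5, which encodes its subunit survivin, lay at 0 to 3.92 CPM in the 14 d controls (median 1.14). In the dosed animals it read 21.8, 3.64, 2.14, 8.42, 16.0, 79.8, 1.08 and 1.92 CPM in replicates 1, 2, 3, 4, 6, 7, 8 and 9. Replicates 1, 4, 6 and 7 lay above every control, and the rest overlapped with the controls. Its log2 fold change was 3.55 (SE 0.64, edgeR adjusted p = 0.000207). Aurkb, the kinase of the complex, spanned 0 to 53.7 CPM (median 8.14) against 1.23 to 4.90 (median 2.38), a log2 fold change of 2.55 (SE 0.76, adjusted p = 0.0279) that turned to -0.11 in limma-voom with quality weights. Cdca8, the borealin subunit, passed at 3.12 (adjusted p = 0.0303) with its lead probe.

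Among genes of G2 and mitotic entry, 6 of 8 tested genes rose. Cdk1 lay at 0.22 to 3.81 CPM in the controls (median 1.92). The dosed animals had 12.6, 1.47, 0.71, 7.07, 10.8, 79.9, 3.85 and 2.18 CPM in the same order, with replicate 8 just over the highest control. The log2 fold change of Cdk1 was 2.92 (SE 0.62, adjusted p = 0.0018). Ccna2, cyclin A2, which partners kinases from S phase to mitosis, reached 41.1, 17.9, 35.3 and 137 CPM in replicates 1, 4, 6 and 7. In replicates 2, 3, 8 and 9 it read 2.95, 4.01, 0.47 and 0.44 CPM, against 0.67 to 5.99 in the controls, of which the last values fall below the lowest control. Ccna2 rose by 3.27 on the log2 scale (SE 0.75, adjusted p = 0.0038).

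Ccnb1, cyclin B1, the partner of Cdk1 in mitosis, spanned 0 to 95.4 CPM (median 4.79) against 0.67 to 7.62 (median 2.03). It was at 0 in replicates 8 and 9, and its log2 fold change was 2.86 (SE 0.86, adjusted p = 0.0319), against -0.50 in limma-voom with quality weights. Plk1, a kinase of mitotic entry and exit, followed at 2.56 (adjusted p = 0.0253), against -0.17 in limma-voom with quality weights. Aurka, the centrosome kinase, had 2.93 (adjusted p = 0.0132) and Cdca3, which promotes entry into mitosis, 2.92 (0.00208). Pbk, a mitotic kinase, had a lead probe at 2.57 that missed the threshold (adjusted p = 0.0544) and passed with the 5 CPM filter or with probes summed. Foxm1, a transcription factor of G2 and M genes, stayed under 1 CPM in every group, with a highest mean of 0.33 CPM, and was not analysed further.

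Both genes of chromosome structure rose. Mki67 read 16.1, 3.85, 6.46 and 29.0 CPM in replicates 1, 4, 6 and 7 and 0, 0.89, 0 and 0 CPM in replicates 2, 3, 8 and 9. Controls lay at 0 to 1.53 CPM (median 0.61), so the first 4 animals named stood above all of them. The log2 fold change was 3.38 (SE 0.96, adjusted p = 0.0204). Top2a spanned 0 to 82.7 CPM (median 7.24) against 1.12 to 5.22 (median 2.59), with a log2 fold change of 2.99 (SE 0.78, adjusted p = 0.0119).

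Of 7 tested genes of the spindle, kinetochore and checkpoint, 3 rose. Cenpe, a kinetochore motor, spanned 0 to 80.1 CPM (median 7.56) against 0.64 to 4.68 (median 1.42) and rose by 3.15 (adjusted p = 0.00335). Cenpf, an outer kinetochore protein, rose by 3.70 (adjusted p = 0.00783). Hmmr, a spindle assembly factor, had the largest log2 fold change of the lead probes tested, 3.92 (adjusted p = 0.00881), and 134 CPM in replicate 7 against 16.4 CPM in replicate 6, the next highest animal. Bub1b, a checkpoint kinase relative, had 3.08 (adjusted p = 0.0593), Kif11, a motor that separates spindle poles, 2.82 (0.0514), and Bub1, a checkpoint kinase, 2.02 (0.166), and these missed the threshold. With the probes of a gene summed Bub1b passed, and with DESeq2's size factors Kif11 did. Bub1b had reached 1 CPM only in this dosed group.

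Cdc20, whose promoter is printed above, spanned 0.26 to 135 CPM (median 5.51) against 0.76 to 8.16 (median 1.70). It read 29.6, 10.2, 30.2 and 135 CPM in replicates 1, 4, 6 and 7 and 0.61, 0.53, 0.81 and 0.26 CPM in replicates 2, 3, 8 and 9. The first set lies above all controls, and in the second set only replicate 8 reaches the lowest control. Its log2 fold change was 3.41 (SE 0.89, adjusted p = 0.0119).

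Of 6 cytokinesis genes, 2 rose. Kif20a, a motor of the central spindle, spanned 0.78 to 175 CPM (median 11.4) against 0.41 to 12.6 (median 4.03), with a log2 fold change of 2.90 (SE 0.67, adjusted p = 0.00401). Prc1, which bundles the microtubules of the central spindle, had 3.16 (adjusted p = 0.0119). Ect2, the exchange factor for RhoA at the division plane, had 2.45 (adjusted p = 0.0539), and Racgap1, a subunit of the centralspindlin complex, 3.15 (0.0674). Both passed with probes summed, and Ect2 also with the 5 CPM filter, DESeq2's size factors and DESeq2. Racgap1 had reached 1 CPM only in this dosed group.

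**Figure D2:**
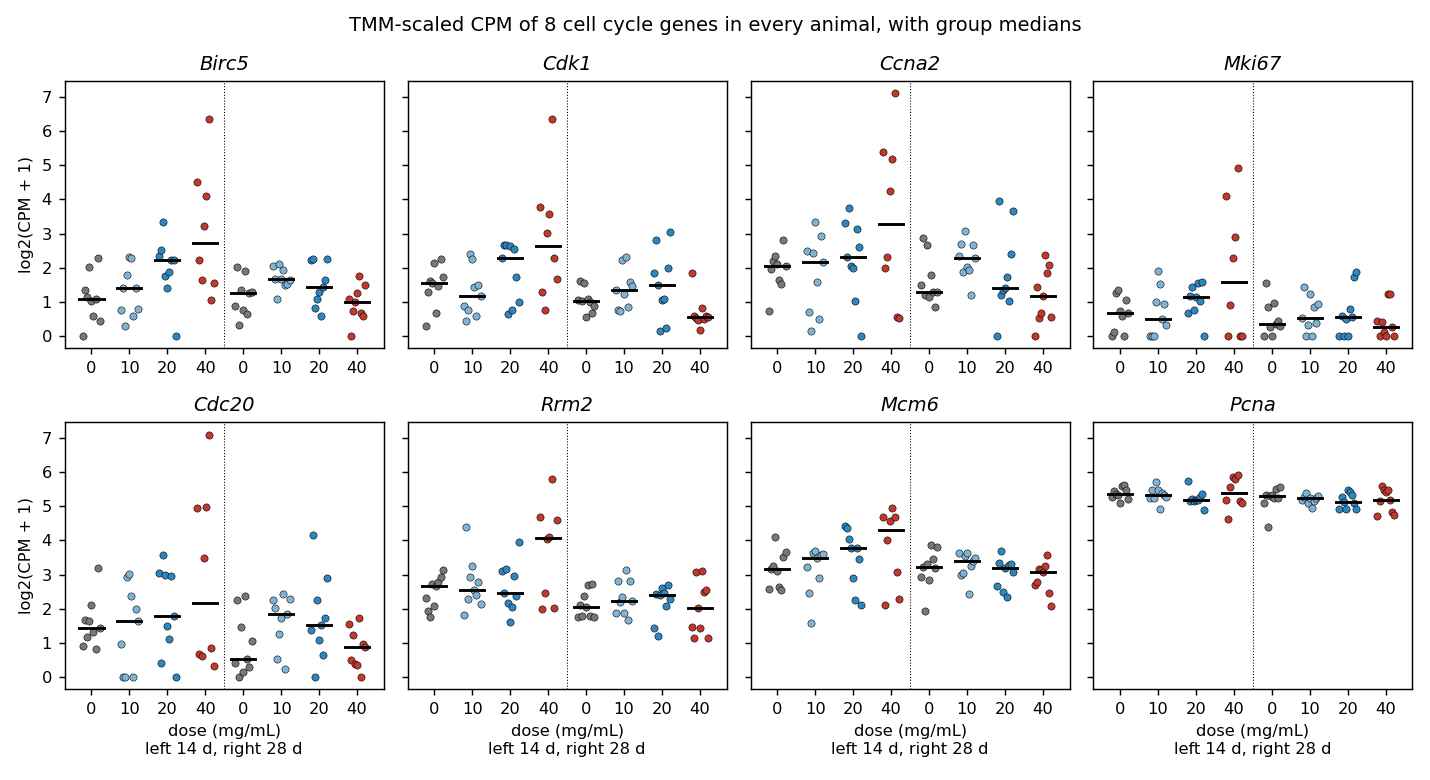
TMM-scaled CPM of 8 member genes in every animal, as log2(CPM + 1), by dose in mg/mL at 14 d (left of the dotted line) and 28 d (right), with group medians as bars. In Birc5, Ccna2, Mki67 and Cdc20, 4 animals at 40 mg/mL for 14 d stand above every control, while Pcna shows no such set.

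Deoxynucleotide supply gave the only rises among genes of G1 and S phase. Rrm2, the limiting subunit of ribonucleotide reductase, lay at 2.38 to 7.77 CPM in the controls (median 5.37). The dosed animals had 24.6, 2.95, 4.45, 15.5, 16.0, 54.3, 3.04 and 23.2 CPM, so replicate 9, low for mitotic genes, was among the high animals here. Rrm2 rose by 1.91 (SE 0.41, adjusted p = 0.00186). Rrm1, the large subunit, spanned 26.8 to 104 CPM (median 46.3) against 28.0 to 45.6 (median 38.9) and rose by 0.57 (SE 0.16, adjusted p = 0.0152).

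Tyms, thymidylate synthase, had 0.42 (adjusted p = 0.299). Tk1, thymidine kinase, chosen for mention after its values were seen, showed another order. It read 31.4, 51.8 and 38.1 CPM in replicates 2, 8 and 9 and 4.96 and 16.6 CPM in replicates 1 and 7. Controls lay at 6.68 to 51.4 CPM, and the log2 fold change was 0.22 (adjusted p = 0.863).

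None of the 7 tested genes of origin licensing and the replication fork passed at 40 mg/mL for 14 d. Pcna, the sliding clamp of DNA polymerases, lay at 23.4 to 59.4 CPM (median 40.9) against 32.9 to 48.2 (median 39.6), a log2 fold change of 0.07 (SE 0.14, adjusted p = 0.843). The helicase subunits Mcm6 and Mcm2 had 0.94 (SE 0.33, adjusted p = 0.0714) and 0.92 (SE 0.37, adjusted p = 0.131). Mcm6 read 24.8, 22.7, 29.9 and 24.6 CPM in replicates 1, 4, 6 and 7, all above the controls at 4.83 to 16.0 CPM. In replicates 2, 8 and 9 it read 3.29, 7.42 and 3.83 CPM, so the same 4 animals were high in this gene although the group did not pass. The call of Mcm6 depended on the processing, with an adjusted p of 0.0418 under the 5 CPM filter, 0.0386 in DESeq2 and 0.0396 with probes summed, and up to 0.436 under the others. Mcm2 passed only with probes summed (1.05, adjusted p = 0.0229). Mcm5, which had reached 1 CPM only in this dosed group, had 1.09 (adjusted p = 0.644) from a highest dosed value of 2.59 CPM.

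None of the 4 genes of G1 and S phase entry passed. Ccne2, cyclin E2, spanned 1.56 to 9.31 CPM (median 3.51) against 1.05 to 4.06 (median 1.58), a log2 fold change of 1.13 that missed the threshold (SE 0.38, adjusted p = 0.0522). Ccne2 passed with the 5 CPM filter (adjusted p = 0.0282), DESeq2's size factors (0.047), DESeq2 (0.0253) and probes summed (0.0406), and had an adjusted p of up to 0.592 under the others. Ccne1, cyclin E1, had -0.10 (adjusted p = 0.959) and Ccnd1, cyclin D1, 0.42 (adjusted p = 0.664). The controls of Ccnd1 lay at 11.4 to 24.0 CPM. It read 53.7, 49.9 and 24.8 CPM in replicates 1, 4 and 7, above every control, but 12.9 CPM in replicate 6, and 5.73 and 3.48 CPM in replicates 8 and 9, below every control. E2f1, an activating E2F factor that had reached 1 CPM only in this dosed group, had 0.92 (adjusted p = 0.605).

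Replicates 1, 4, 6 and 7 recurred across the list. This set was picked from the same values, and how often these animals were jointly high over all tested probes was not counted. They were all above every 14 d control in 28 of the 44 genes, and in 25 of these no other dosed animal was. They were the 4 highest dosed animals in 32 of the 44 genes, and replicate 7 was the highest in 34. For 10 of the 44 genes the lead probe had reached 1 CPM only through this group, so being high in it is what let them in. Over the other 34 genes, the 4 animals were all above every control in 23, and in 20 of these no other dosed animal was. In replicates 1, 4, 6 and 7, 39, 33, 39 and 41 of the 44 lead probes lay above every control. In replicates 2, 3, 8 and 9 only 1, 3, 2 and 1 did, and 7, 3, 9 and 15 lay below every control. Over the 34 genes the numbers above every control were 30, 27, 30 and 31 in replicates 1, 4, 6 and 7 and 1, 3, 2 and 1 in replicates 2, 3, 8 and 9. Over all tested probes, 12.6 to 24.5% lay above every control in the 8 animals, with 24.5, 12.6, 16.0 and 24.5% in replicates 1, 4, 6 and 7. Below every control lay 20.1, 13.3, 17.0 and 19.9% of all tested probes in replicates 2, 3, 8 and 9. The numbers of lead probes below every control are to be read against these shares. Of the 14 d controls, each set against the other controls, the highest had 47.7% of the lead probes above all others. No gene separated the groups, since in 0 of 44 genes all 8 dosed animals lay above all 9 controls, against 0.0997% of all tested probes.

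**Figure D3:**
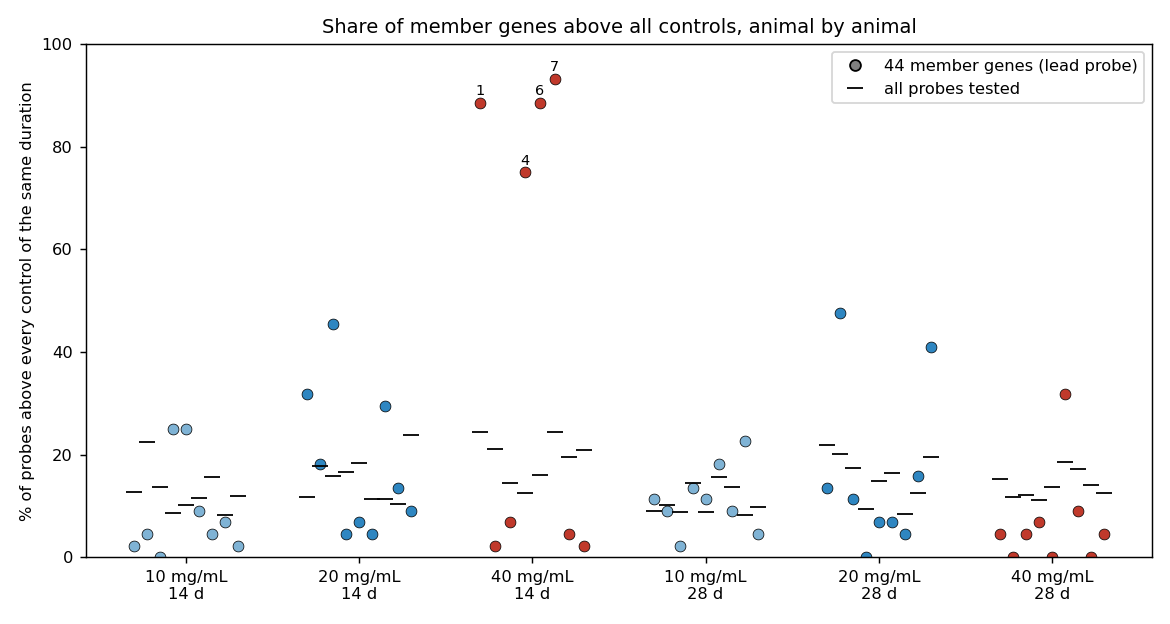
Share of the 44 lead probes that lay above every control of the same duration, for each dosed animal (circles), with the same share over all tested probes (dashes). At 40 mg/mL for 14 d the animals divide, with replicates 1, 4, 6 and 7 at 75.0 to 93.2% and the rest at 2.27 to 6.82%.

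**Figure D4:**
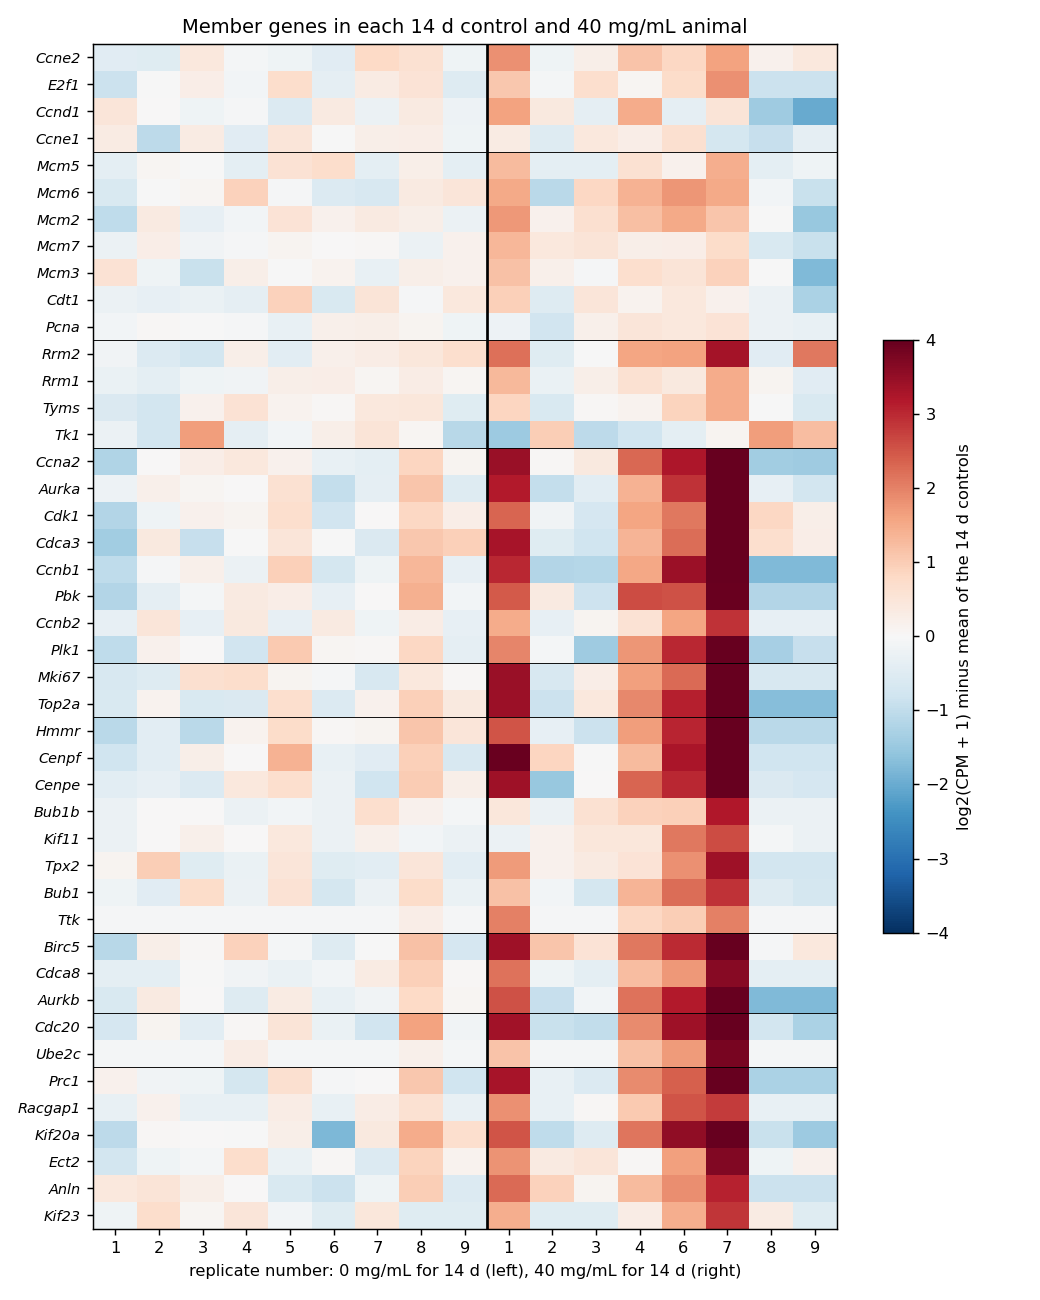
Log2(CPM + 1) of the 44 lead probes in each 14 d control and each animal at 40 mg/mL for 14 d, minus the mean of the controls, with colours limited to 4 in either direction and black lines between roles. Replicates 1, 4, 6 and 7 are red through the mitotic genes, while Tk1 is high in replicates 2, 8 and 9.

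Other features of the libraries moved with part of this pattern. The TMM factors of replicates 1 and 7 were 1.55 and 1.58, the highest of the group, those of replicates 4 and 6 were 1.02 and 0.98, and those of replicates 2, 3, 8 and 9, with low mitotic transcripts, 1.39, 1.00, 1.30 and 1.12, against 0.85 to 0.96 in the controls. The summed hepatocyte markers stood at 12330 and 9311 CPM in replicates 1 and 7, and at 39860 and 39020 CPM in replicates 4 and 6. The controls lay at 40280 to 57500 CPM, and replicates 2, 3, 8 and 9 at 13210, 32710, 11610 and 26290 CPM. The lowest hepatocyte sums were those of replicates 1, 7, 2 and 8, and their relation to the mitotic transcripts was not tested. At the level of the group, 5 of 7 hepatocyte markers fell, among them Alb by 0.72 and Cyp2e1 by 1.28 on the log2 scale.

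Erythroid and megakaryocyte markers summed to 163 and 190 CPM in replicates 1 and 7, to 34.4 and 38.1 in replicates 4 and 6, and to 8.70 to 102 in the rest, against 20.2 to 44.3 CPM in the controls. Of this list 1 of 7 tested markers rose, Hba-a2 (1.56, adjusted p = 0.0348), an alpha-globin gene with a near-identical copy that short probes may not tell apart. Kupffer cell and macrophage markers summed to 292, 327, 301 and 306 CPM in replicates 1, 4, 6 and 7, all above the controls at 216 to 286.5 CPM, and to 94.4 to 233 CPM in replicates 2, 3, 8 and 9. None of 9 tested markers of that list passed as a group difference.

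Summed T and NK cell markers lay at 5.06 to 10.8 CPM (controls 7.37 to 19.2), B and plasma cell markers at 2.79 to 10.0 (2.68 to 12.0), and neutrophil markers at 9.15 to 50.05 (13.8 to 37.55). None of the tested markers of these lists passed, and 7 of the 9 neutrophil markers stayed under 0.1 CPM. Endothelial markers summed to 317 to 482 CPM (controls 431 to 532), stellate cell markers to 103 to 218 (155 to 230) and cholangiocyte markers to 8.88 to 22.7 (12.2 to 25.9), with 1 lower in each of the first pair of lists. No marker was at 0 in all libraries. The part of these cell types in the rise of mitotic transcripts was not tested.

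Leaving out replicate 7 alone reduced the 33 probes called at 40 mg/mL for 14 d to 4, with Birc5 (2.44, adjusted p = 0.00769) and Rrm2 (1.41, adjusted p = 0.0255) the only lead probes named that passed, and leaving out replicates 1 and 7 gave 0, with Birc5 at 1.94 (adjusted p = 0.0678). The count was 3 in limma-voom with quality weights, 3 with the 2 groups fitted alone, 1 (Birc5) with the log2 TMM factor as a covariate, and 20 with the failed library kept. The shares of all probes called in these refits are not given here. Whether calls fell more among the members than elsewhere therefore cannot be read from these counts. The median log2 fold change over the 34 named genes, 2.84 in the edgeR fit, was 0.70 in limma-voom, 1.61 with the covariate and 1.35 without replicates 1 and 7. With probes summed per gene 26 of the 34 passed, against 19.

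For 24 genes more than 1 probe was tested at 40 mg/mL for 14 d. In 8 of them every tested probe was called, and in 9 the probes differed in call. Besides the lead probes, a probe that did not pass was present for Cdca8 (1.71, adjusted p = 0.401), Cdk1 (2.71, 0.129), Mki67 (2.29, 0.147), Plk1 (2.34, 0.143), Prc1 (2.64, 0.0545), Rrm1 (0.03, 0.975, and 0.81, 0.607) and Rrm2 (1.48, 0.163). Conversely, a second probe passed for Pbk (4.58, 0.00688) and Ect2 (4.35, 0.0232). That probe of Ect2 had reached 1 CPM only in this dosed group. With any probe counted, 21 genes were higher.

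The lower doses at 14 d gave no call among the members. At 10 mg/mL 0 of 73 member probes and 0% of all probes passed, and 0 member probes had an unadjusted p under 0.05, against 4.32% of all probes. The median log2 fold change was -0.02. At 20 mg/mL 0 member probes passed, against 0.0352% of all probes, and 4 had an unadjusted p under 0.05, all higher, where 3.53% of all probes were higher at that threshold. There 57 of 73 member probes had a positive log2 fold change, with a median of 0.50. The 27 genes of G2, mitosis and cytokinesis had a median of 0.74, with 24 positive, and the 15 genes of G1, S phase, replication and deoxynucleotide supply a median of -0.04, with 6 positive.

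Birc5 at 20 mg/mL for 14 d spanned 0 to 9.12 CPM (median 3.67), with 3 of 9 animals above all controls, and had a log2 fold change of 1.30 (unadjusted p = 0.0357, adjusted p = 0.761). Cdk1 spanned 0.56 to 5.40 CPM (median 3.87), with 5 of 9 animals above all controls, and had 0.74 (adjusted p = 0.942). Bub1b had 1.89 (adjusted p = 0.847). Replicates 1, 3 and 7 of that group had 14, 20 and 13 of 44 lead probes above every control, and the other 6 animals had 2 to 8. Over all tested probes these shares were 11.8, 15.9 and 11.4% in replicates 1, 3 and 7 and 10.5 to 23.8% in the rest.

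The linear trend over doses at 14 d called 45 of 73 member probes as rising and 0 as falling. Of all probes, 7.99% were called in either direction and 3.65% as rising. Among the 38 member probes whose 14 d control mean was itself at least 1 CPM, 23 rose. The 19 tested probes that reached 1 CPM only at 40 mg/mL for 14 d entered by being high there, and 9 of them rose. The median slope was 0.67 log2 per 10 mg/mL, and Birc5 had 0.92 (SE 0.14, adjusted p = 2.53e-05), Cdk1 0.79 (SE 0.14, adjusted p = 0.000226) and Mcm6 0.25 (SE 0.08, adjusted p = 0.0286). Of the 27 genes of G2, mitosis and cytokinesis 24 rose with dose, and of the other 15 genes 3 did (Rrm2, Rrm1 and Mcm6). The lead probes of 6 of the 27 and 2 of the 15 had reached 1 CPM only at 40 mg/mL for 14 d. The slope over 0, 10 and 20 mg/mL alone called 0 member probes, with a median of 0.25. The count fell to 10 without replicate 7 at 40 mg/mL, to 1 without replicates 1 and 7, to 1 with the log2 TMM factor as a covariate and to 5 in limma-voom. The shares of all probes called over the lower doses and in these refits are not given here. At 20 against 0 mg/mL only 0.0352% of all probes passed, so a count of 0 over the lower doses is no result about the members.

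At 28 d no member probe passed at any dose in edgeR. At 40 mg/mL 0 of 73 passed, against 0.00587% of all probes, and 0 had an unadjusted p under 0.05, against 6.32% of all probes. The median log2 fold change was -0.22, and 50 of 73 probes had a negative one. Cdk1 spanned 0.14 to 2.63 CPM (median 0.48) against 0.48 to 2.06 (median 1.06) in the 28 d controls, a log2 fold change of -0.65 (SE 0.67, adjusted p = 0.968). Birc5 spanned 0 to 2.36 CPM (median 1.00) against 0.24 to 3.03 (median 1.42), with -0.37 (SE 0.65, adjusted p = 0.981). No animal of that group exceeded all controls in Birc5 and 1 did in Cdk1, while 4 of 9 lay below all controls in Cdk1. Pbk had -1.53 (SE 0.95, adjusted p = 0.862) and Ect2 1.17 (SE 0.83, adjusted p = 0.92).

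At 20 mg/mL for 28 d 0 member probes passed, against 0.158% of all probes, with a median log2 fold change of 0.42. An unadjusted p under 0.05 was reached by 4, all higher, while 6.91% of all probes were higher at that threshold, so the members did not exceed the background. Replicates 2 and 9 of that group had 21 and 18 of 44 lead probes above every control, and the other 7 animals had 0 to 7. Over all tested probes the shares in replicates 2 and 9 were 20.2 and 19.6%. An untreated 28 d control, replicate 2, had 20 of 44 (45.5%) above all other controls, close to these dosed animals. The TMM factors of replicates 2 and 9 were 1.23 and 1.48, against 0.79 to 1.37 in the controls. At 10 mg/mL for 28 d 0 member probes and 0% of all probes passed, with 3 higher and 1 lower at an unadjusted p under 0.05, against 4.15% of all probes in either direction. The linear trend at 28 d called 0 member probes, against 0.129% of all probes, with 1 lower at an unadjusted p under 0.05, against 3.51% of all probes.

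The difference between the 40 mg/mL effects at 28 and 14 d was tested as an interaction. No member probe and 0% of all probes passed the adjusted threshold, and the smallest adjusted p of a member was 0.222. At an unadjusted p under 0.05, 42 of 73 member probes had the smaller effect at 28 d, against 2.93% of all probes with that direction. The median difference was -2.62 log2. Among the 38 member probes whose 14 d control mean was itself at least 1 CPM, 24 did. Among the 19 tested probes that reached 1 CPM only at 40 mg/mL for 14 d, 9 did, and their entry favours this direction. The difference was -3.92 for Birc5 (SE 0.90, unadjusted p = 4.62e-05, adjusted p = 0.222), -3.57 for Cdk1 (SE 0.91, adjusted p = 0.222) and -3.85 for Ccna2 (SE 1.06, adjusted p = 0.271). For Pcna it was -0.11 (SE 0.19, adjusted p = 0.988). The animals of the durations are different ones. Between the control groups, 28 d against 14 d, 0 member probes and 0% of all probes passed, with 2 lower at an unadjusted p under 0.05, against 1.3% of all probes, and a median of -0.31.

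Related cell cycle genes outside the list were read in the same way, each by lead probe. Of 186 listed symbols 178 were in the table and 147 were tested, and at 40 mg/mL for 14 d 25 were higher and 0 lower (17.0% higher, against 2.84% of all probes), with a median log2 fold change of 0.57. These calls rest on the same 14 d animals. They were not followed through the alternatives or with animals left out. Kinetochore, spindle and division genes gave 14 of the 25, from 36 tested. The E2F, DREAM and MYB factors gave 0 of 13, the CDK inhibitors and pocket proteins 0 of 7, and the replication machinery 1 of 34. Other cyclins, CDKs and their regulators gave 4 of 17, replication stress and checkpoint genes 3 of 15, cohesion and condensation genes 2 of 10, and ubiquitin ligase genes 1 of 15.

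The 5 with the smallest p were Kifc1, a minus-end spindle motor, Knl1, a kinetochore scaffold, Stmn1, which destabilises microtubules, Atr, a kinase of replication stress, and Ube2s, which extends ubiquitin chains for the anaphase-promoting complex. Kifc1 averaged 10.8 ± 18.7 CPM (SD, n = 8) against 1.25 ± 0.60 (SD, n = 9), a log2 fold change of 3.10 (edgeR adjusted p = 0.00488). Knl1 had 3.06 (adjusted p = 0.00669) and Stmn1 2.11 (adjusted p = 0.00695). Atr averaged 18.0 ± 7.63 CPM against 9.79 ± 0.85, a log2 fold change of 0.88 (adjusted p = 0.00728), with 6 of 8 dosed animals above every control. Ube2s averaged 25.9 ± 11.5 CPM against 15.8 ± 2.33, a log2 fold change of 0.71 (adjusted p = 0.00756), with 7 of 8 above every control, more animals than the 4 of 8 for Knl1 and Stmn1. At 40 mg/mL for 28 d 0 of the 147 related genes passed.

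Members near or under the 1 CPM threshold complete the list. Just inside it stood probes of Mcm7 (highest group mean 1.11 CPM), Mcm5 (1.13), Tyms (1.16) and Ttk (1.18), and just outside it probes of Kif23 (0.92), Cdt1 (0.91), Ccna2 (0.85) and Mcm3 (0.83). No probe of Mcm4, Cdc6, Foxm1 or Nusap1 reached it, with highest group means of 0.70, 0.56, 0.33 and 0.27 CPM. Lead probes of Ube2c, a ubiquitin-conjugating enzyme of mitotic exit, and Ttk, a checkpoint kinase, fell below the filter of the test. Both genes had reached 1 CPM only at 40 mg/mL for 14 d, so being high there is what let them in. In that group Ube2c read 1.30, 1.34, 2.42 and 13.6 CPM in replicates 1, 4, 6 and 7 and 0 in the rest. The controls read at most 0.29 CPM. The 8 tested genes not named by the rule had log2 fold changes of 0.08 to 2.56 in that group, with a smallest adjusted p of 0.0979.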

How the data were processed

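Liver sections of 72 mice were measured by TempO-Seq. The values are raw counts per probe in the table the authors deposited, and per the submitters' processing notes bcl2fastq 2.20 and Bowtie were used. The Bowtie version, genome build and counting settings are not given in the sources used here. Samples were grouped by the labelled dose and duration, and no pairing is labelled.

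Computed here: a library under 100000 counts was dropped, leaving 71 of 7.77 to 12.7 M counts. Probes were filtered with filterByExpr (17050 of 30146 kept), scaled by TMM and fitted over 8 group means with edgeR 4.0.16 (quasi-likelihood, robust, R 4.3.3). P-values were adjusted over all probes by Benjamini-Hochberg at 0.05, and the common biological coefficient of variation was 0.402. P-values set each difference between groups against the spread between animals, estimated over all 8 groups together. The dose trend is a slope per 10 mg/mL over group means. Fitted log2 fold changes of genes with counts near 0 depend on the prior count.

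The members and lists were chosen with earlier results of these data known. The 20 core members and up to 15 further members with a probe that passed, by smallest p, were named, with up to 5 related genes. Alternatives were no filter, a 5 CPM filter, DESeq2 1.42.0 and its size factors, limma 3.58.1 voom with quality weights, the compared groups alone, the log2 TMM factor as a covariate, the failed library kept, probes summed per gene, and each animal left out. Leaving out replicates 1 and 7 at 40 mg/mL for 14 d together, and the trend without the top dose, were chosen after seeing the data. The fit was tested on simulated data.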

Additional observations from a re-analysis of the deposited data

Results flagged for a closer look

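For 19 named genes, the highest and lowest animal of each group was compared with the rest, and in 9 of 152 gene and group pairs a single animal stood apart by Dixon's criterion, which chance alone meets in about 1 in 20 groups. The criterion was applied to log2 CPM, and values here are TMM-scaled CPM. At 20 mg/mL for 14 d, replicate 9 was the low animal for Mki67 (0, with the next at 0.59), Birc5 (0, next 1.64) and Mcm2 (0.784, next 3.78). At 40 mg/mL for 28 d, Cdk1 was high in replicate 1 (2.63, next 0.76), Ccne2 was low in replicate 8 (0.104, next 0.837) and Birc5 was low in replicate 2 (0, next 0.522). At 10 mg/mL for 28 d, Ccnb1 was low in replicate 7 (0, next 0.979) and Plk1 in replicate 6 (0, next 0.787). Among the 28 d controls, Pcna was low in replicate 3 (20.2, next 33.3). None of these lies in the group given 40 mg/mL for 14 d, where the high animals are several and no single one stood apart by this criterion.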

How the results depend on the processing

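The 33 member probes called at 40 mg/mL for 14 d became 3 in limma-voom with quality weights, 3 with the compared groups fitted alone (42 member probes tested), 1 with the log2 TMM factor as a covariate, 20 with the failed library kept and 0 without replicates 1 and 7, where 16 had an unadjusted p under 0.05 and the median log2 fold change was 1.14. The 45 called by the 14 d trend became 5, 1 and 1 under limma-voom, the covariate and the loss of replicates 1 and 7, and 0 over doses of 0, 10 and 20 mg/mL. The cause was not tested. The shares of all probes called under these alternatives are not given here, so a fall particular to the members cannot be read from the counts. Leaving out 1 animal gave 4 (without replicate 7 at 40 mg/mL) to 39 probes at 40 mg/mL for 14 d, and 10 (without the same animal) to 48 for the trend. In limma-voom Ccnb1, Plk1 and Aurkb turned to -0.503, -0.17 and -0.105 on the log2 scale. No filter, the 5 CPM filter, DESeq2 size factors and DESeq2 gave 34, 36, 36 and 34 probes at 40 mg/mL for 14 d. Named genes that passed under some alternatives and not in the edgeR fit used were Ccne2, Mcm2, Mcm6, Pbk, Ect2, Bub1b, Kif11 and Racgap1. The other 8 comparisons called 0 member probes in every alternative run and with each animal left out. The 1 CPM rule kept 77 probes on TMM-scaled CPM. No paired analysis was possible because the labels do not pair animals across groups. Probes under about 1 CPM rest on about 10 counts or fewer per library, which limits the lowest members.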
